A study of Mus musculus with 4 samples.

Results

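The IL-1 family genes described here comprise 10 genes taken by symbol from the 35798 genes named in the count table. They are the ligands Il1a, Il1b and Il18, the antagonists Il1rn and Il18bp, the receptors Il1r1, Il1rap, Il1r2 and Il1rl1, and Casp1, the protease that matures IL-1β and IL-18. Ly49H+ NK cells of CD45.1 wild-type mice and CD45.2 TNFR2 KO mice, which are deficient in the TNF receptor gene Tnfrsf1b, were transferred together into NSG mice. The hosts were infected with murine cytomegalovirus (MCMV) the day after, and Ly49H+ CD45.1+ and Ly49H+ CD45.2+ cells were sorted from spleen 3.5 days after infection. Each genotype had 2 libraries, each made from spleens of 3 NSG mice that were pooled, and equally numbered libraries shared a pool. Mice in the study were 6 to 12 weeks old. NSG mice lack T, B and NK cells of their own but keep myeloid and erythroid cells, and the NOD background they derive from carries the CD45.1 allele that also marks the wild-type donor cells. Since genotype, congenic allele and sort gate went together, their parts in any difference cannot be told apart.

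IL-1α and IL-1β act through IL-1R1 and its partner IL-1RAcP, the product of Il1rap, to recruit MyD88 and activate NF-κB. IL-1 receptor antagonist, encoded by Il1rn, occupies IL-1R1 without signalling, and IL-1R2, encoded by Il1r2, is a decoy that binds IL-1 without a signalling domain. IL-1β and IL-18 are made as inactive precursors that caspase-1 cleaves inside inflammasomes, whereas the IL-1α precursor is already active. Macrophages, monocytes and neutrophils are the classic sources of IL-1, and NK cells are known mainly as responders to IL-18, which drives their IFNγ production. IL-18 binding protein, from Il18bp, neutralises IL-18, and ST2, from Il1rl1, is the receptor for IL-33 on mast cells, group 2 innate lymphoid cells and activated lymphocytes.

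All 3 ligands and both antagonists were lower in the sorted TNFR2 KO samples by between 5.28-fold and 12.2-fold, and so was the decoy receptor gene Il1r2, by 2.72-fold. Markers of other cells fell in the same samples, 17 of 18 for macrophages or monocytes (median log2-fold change -2.93) and 16 of 16 for neutrophils or their precursors (median -2.25), and their part in the change was not tested. In bulk RNA, fewer cells of a type and less RNA per cell cannot be told apart. Il1rl1 and Casp1 fell much less, Il1rap and Il1r1 did not pass the test, and 0 of the 10 genes rose. Expression is given as CPM, estimated counts brought to a common library size with TMM factors, and changes as the log2-fold change in TNFR2 KO relative to wild-type. A gene was called at an adjusted p under 0.05 by edgeR together with an absolute log2-fold change over 1, the study's thresholds. By this rule 6 of the 10 genes were lower, where 11.8% of all 13822 tested genes were, and none was higher, where 1.56% of all genes were. By adjusted p alone 8 were lower and 0 higher, against 26.2% and 24.2% of all tested genes. No gene of the 10 rose at an unadjusted p under 0.05 either, and DESeq2 also called 6 lower and 0 higher. The 10 genes had a median log2-fold change of -1.92, against -0.003 for all tested genes. Both wild-type libraries lay outside the range of both TNFR2 KO libraries for 9 of the 10 genes, as they did for 74.0% of all tested genes. With 2 libraries per genotype an exact permutation test of a single gene cannot give a two-sided p under 0.333, and the p-values measure the spread between these pools only.

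**Figure D1:**
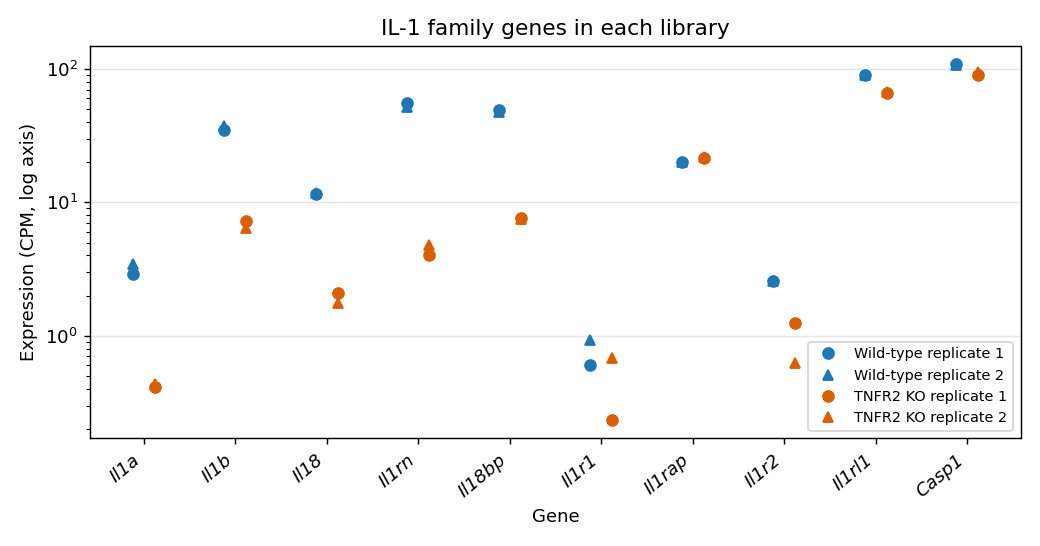
Expression of the 10 genes in each of the 4 libraries, in CPM on a log axis, with wild-type in blue, TNFR2 KO in orange, and circles and triangles for replicates 1 and 2. Il1rn stood at 55.1 and 51.8 CPM in wild-type and at 4.06 and 4.78 CPM in TNFR2 KO, while the points of Il1rap lay close together between 20.1 and 21.8 CPM.

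The IL-1 ligand genes Il1a and Il1b are neighbours on chromosome 2 of build GRCm38 (mm10), both read from the minus strand, and span 129299610 to 129309972 and 129364570 to 129371139. Il1rn lies on the other strand of the same chromosome, from 24336853 to 24351494. Il18 (50554827 to 50581840) and Casp1 (5298517 to 5307265) are both on the plus strand of chromosome 9, and Il18bp spans 102014885 to 102018690 of chromosome 7 on the minus strand. Il1rap spans 26581704 to 26730117 of chromosome 16 on the plus strand. Il1a, Il1b, Il18, Il18bp, Il1rap and Il1r2 each overlap a gene annotated on the opposite strand. Of their 31-base stretches, 10.03% in Il1a, 4.33% in Il1rap and 1.6% in Il18bp also occur in that partner's transcripts, and none do in Il1b, Il18 or Il1r2. The kallisto strand setting was not stated, so reads from the shared stretches could belong to either gene. The other 3 receptor genes sit together on chromosome 1 and are described further on.

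Promoters are shown for both IL-1 genes, which fell, and for Casp1 and Il1rl1, which stayed short of the fold threshold. Each sequence is the 250 bases before a RefSeq start (build GRCm38.p6), read 5′ to 3′ on the gene's strand, and none of these 4 windows holds an annotated exon. Capitals mark matches to the motifs searched on both strands, which were the PU.1 core GAGGAA, C/EBP as TTGCNNAA, NF-κB as GGNNNTTCC, the interferon-γ element GAS as TTCNNNGAA and the interferon element ISRE as GAAANNGAA. PU.1 and C/EBP factors are regulators of myeloid genes.
Il1a, chr2:129309973-129310222, minus strand: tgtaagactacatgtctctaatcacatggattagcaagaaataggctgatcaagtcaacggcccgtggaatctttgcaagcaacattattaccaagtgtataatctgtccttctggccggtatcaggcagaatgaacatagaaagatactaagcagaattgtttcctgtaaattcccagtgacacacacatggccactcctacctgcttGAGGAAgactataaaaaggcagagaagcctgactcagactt
Il1b, chr2:129371140-129371389, minus strand: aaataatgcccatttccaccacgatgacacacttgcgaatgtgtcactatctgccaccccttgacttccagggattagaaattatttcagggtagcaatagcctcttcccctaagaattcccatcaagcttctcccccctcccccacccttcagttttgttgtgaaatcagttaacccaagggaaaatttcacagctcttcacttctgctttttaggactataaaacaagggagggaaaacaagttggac
Casp1, chr9:5298267-5298516, plus strand: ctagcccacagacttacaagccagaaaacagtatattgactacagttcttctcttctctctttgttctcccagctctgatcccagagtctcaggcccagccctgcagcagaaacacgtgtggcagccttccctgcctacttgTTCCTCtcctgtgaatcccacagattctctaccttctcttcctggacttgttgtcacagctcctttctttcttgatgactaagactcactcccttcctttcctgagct
Il1rl1, chr1:40429320-40429569, plus strand: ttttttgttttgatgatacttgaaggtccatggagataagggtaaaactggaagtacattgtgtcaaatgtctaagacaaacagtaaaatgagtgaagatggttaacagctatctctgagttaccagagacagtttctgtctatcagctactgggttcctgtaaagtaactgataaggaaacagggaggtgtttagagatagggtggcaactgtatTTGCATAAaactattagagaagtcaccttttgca

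In these windows the PU.1 core stood 41 bases before the start of Il1a and 108 bases before that of Casp1, on the reverse strand in the latter, and a C/EBP match stood 34 bases before the start of Il1rl1. The window of Il1b held none of the 5 motifs. RefSeq lists 14 starts for the 10 genes, and over all of these windows the PU.1 core was found in 2 genes, C/EBP in 3, NF-κB in 4, GAS in 1 and ISRE in 0. Among 32851 RefSeq promoters of the same length the shares with a match were 23.3%, 9.56%, 15.7%, 7.02% and 7.13%, respectively. These shares are per window, whereas a gene with several starts was counted if any of its windows matched, so the units differ. The NF-κB match of Il18bp overlapped its C/EBP match, and that of Il1r2 overlapped its GAS match. These are matches of letters, not measured binding.

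Il1b was the most abundant IL-1 gene, with 34.96 and 37.6 CPM in wild-type and with 7.21 and 6.46 CPM in TNFR2 KO. Wild-type and KO values were thus well separated, and its log2-fold change was -2.40 (SE 0.0787, adjusted p = 1.04e-10, edgeR). Il1a was far scarcer, at 2.93 and 3.47 CPM in wild-type and 0.414 and 0.437 CPM in TNFR2 KO, and the latter rest on 16 and 14 counts. Its log2-fold change was -2.90 (SE 0.277, adjusted p = 2.66e-06, edgeR). Of the 10 genes, Il1a had the highest share of sequence in common with its opposite-strand partner, the non-coding Gm14023. Il18 measured 11.5 and 11.8 CPM in wild-type and 2.09 and 1.75 CPM in TNFR2 KO. Groups did not overlap for any of the 3 ligands, nor did they for 74.0% of all tested genes. The log2-fold change of Il18 was -2.59 (SE 0.145, adjusted p = 1.75e-08, edgeR).

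Of all 10 genes, the antagonist gene Il1rn had the log2-fold change of greatest size. It went from 55.1 and 51.8 CPM in wild-type to 4.06 and 4.78 CPM in TNFR2 KO. The log2-fold change was -3.60 (SE 0.0800, adjusted p = 2.30e-12, edgeR). Il18bp measured 49.2 and 47.2 CPM in wild-type and 7.57 and 7.49 CPM in TNFR2 KO, so that both KO libraries lay close together and far below wild-type. Its log2-fold change was -2.68 (SE 0.0646, adjusted p = 5.00e-12, edgeR). Counts were summed per gene, so the secreted and intracellular forms of IL-1 receptor antagonist were not distinguished, and the same holds for soluble and membrane ST2.

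**Figure D2:**
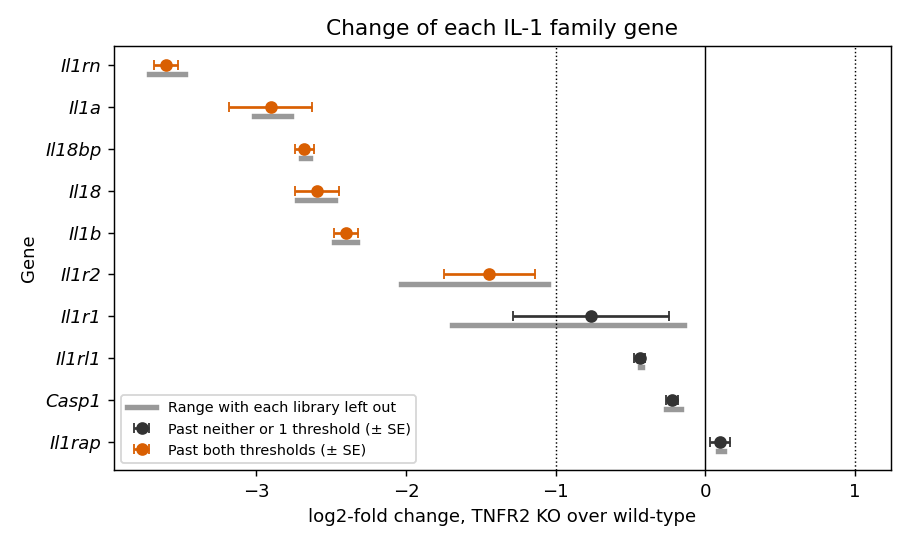
log2-fold change in TNFR2 KO relative to wild-type for each of the 10 genes, with the standard error as a bar and the range over fits that leave out 1 library in grey. Dotted lines mark the fold threshold, the 6 genes past both thresholds (orange) run from -3.60 for Il1rn to -1.44 for Il1r2, and the grey range of Il1r1 is wide, from -1.70 to -0.14.

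Ratios between members within a library do not depend on how the libraries are scaled. Counts of Il1rn relative to the sum of Il1a and Il1b were 1.45 and 1.262 in wild-type and 0.532 and 0.692 in TNFR2 KO. The ratio was thus above 1 in both wild-type libraries and below 1 in both TNFR2 KO libraries. Counts were not corrected for length here, so the ratio compares genotypes and does not give the number of antagonist transcripts per ligand transcript. The corresponding ratio of Il18bp to Il18 was 4.26 and 4.002 in wild-type and 3.62 and 4.29 in TNFR2 KO, and here the groups overlapped. Il1a relative to Il1b was 0.0837 and 0.0923 in wild-type and 0.0574 and 0.0676 in TNFR2 KO. These ratios were not tested, since 2 libraries against 2 allow no exact p under 0.333.

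**Figure D3:**
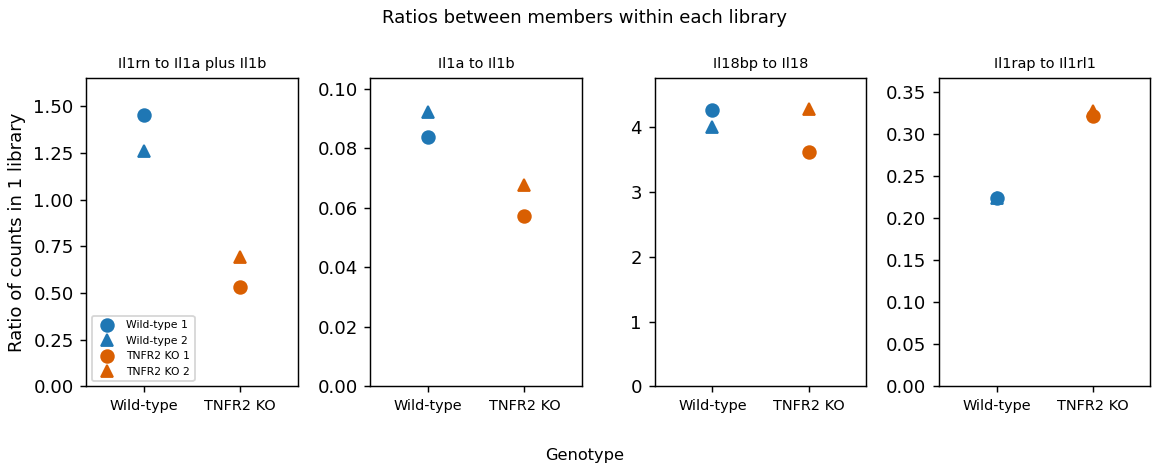
Ratio of counts between members within each library, for 4 pairs of members, with linear axes that start at 0 and circles and triangles for replicates 1 and 2. The ratio of Il1rn to the IL-1 ligands was above 1 in both wild-type libraries and below 1 in both TNFR2 KO libraries, and that of Il18bp to Il18 overlapped between genotypes.

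Among the receptors, Il1r2 was lower in the TNFR2 KO samples, Il1rl1 was slightly lower and Il1rap did not pass the test. Most markers of several other cell types, given further on, were lower in the same samples, and their part was not tested. Il1r2 measured 2.58 CPM in both wild-type libraries, against 1.24 and 0.624 CPM in TNFR2 KO, so that the KO libraries were both below wild-type but far apart from each other. Its log2-fold change was -1.44 (SE 0.304, adjusted p = 0.00180, edgeR) and became -2.03 without TNFR2 KO replicate 1 and -1.05 without TNFR2 KO replicate 2. Il1r1, the signalling IL-1 receptor, was close to the limit of detection, with 23 and 34 counts in wild-type and 9 and 22 in TNFR2 KO. This corresponds to 0.606 and 0.922 CPM and to 0.233 and 0.687 CPM, respectively, with overlapping groups. No difference in Il1r1 was detectable at this depth (log2-fold change -0.76, SE 0.522, adjusted p = 0.253, edgeR). The value rested on single libraries, being -1.70 with an adjusted p of 0.0416 in the same edgeR test without TNFR2 KO replicate 2, -0.14 without the other KO library and -0.41 when wild-type replicate 2 was left out.

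Il1rl1 was the most abundant receptor of the group on the CPM scale, at 90.6 and 89.5 CPM in wild-type and 66.4 and 66.6 CPM in TNFR2 KO. The groups did not overlap, and the log2-fold change was -0.44 (SE 0.0367, adjusted p = 8.06e-07, edgeR), a 1.35-fold difference that does not reach the fold threshold. Il1rap, the shared co-receptor, measured 20.2 and 20.1 CPM in wild-type and 21.3 and 21.8 CPM in TNFR2 KO. This amounts to a log2-fold change of 0.10 (SE 0.0639, adjusted p = 0.235, edgeR), which turned to -0.65 when libraries were scaled on 17 NK lineage genes, where the median of all genes moved to -0.75. Il1rap counts relative to those of Il1rl1 were 0.223 and 0.224 in wild-type and 0.321 and 0.327 in TNFR2 KO. The balance between both genes thus differed between genotypes by more than between replicates, whatever the scaling. Separation of the genotypes was common, since groups did not overlap for 74.0% of all tested genes, and the ratio was not tested.

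Il1r2, Il1r1 and Il1rl1 lie in this order on chromosome 1, all read from the plus strand, and span 40074079 to 40125231, 40225080 to 40317257 and 40429570 to 40465415. Il1rl2, encoding the IL-36 receptor, and Il18r1 and Il18rap, encoding both chains of the IL-18 receptor, belong to the same stretch of 477.6 kb. Il18rap measured 418.2 and 397.8 CPM in wild-type and 539.7 and 550.6 CPM in TNFR2 KO, with a log2-fold change of 0.42 (SE 0.0284, adjusted p = 1.10e-07, edgeR) that became -0.33 when scaled on NK lineage genes. Il18r1 measured 271.2 and 267.9 CPM in wild-type and 279.4 and 277.8 CPM in TNFR2 KO. Its log2-fold change was 0.05 (adjusted p = 0.148, edgeR), which was -0.01 with library size alone as scaling and -0.70 with NK lineage genes. Il1rl2 was lower, at 13.8 and 15.5 CPM in wild-type and 11.7 and 9.61 CPM in TNFR2 KO (log2-fold change -0.45, adjusted p = 0.00503, edgeR). Along the cluster the log2-fold changes thus ran from -1.44 at Il1r2 to 0.42 at Il18rap.

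**Figure D4:**
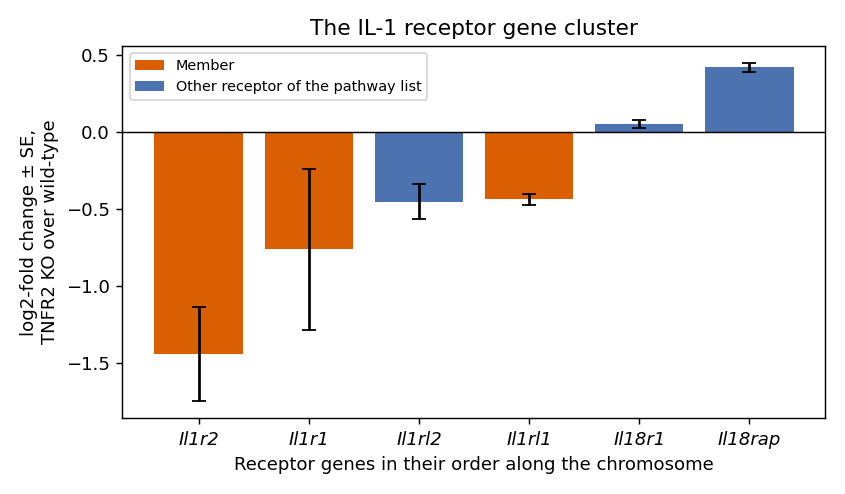
log2-fold change in TNFR2 KO relative to wild-type, with its standard error, for the 6 receptor genes of the chromosome 1 cluster in their order along the chromosome, with members in orange and other receptors in blue. Values run from -1.44 for Il1r2 to 0.42 for Il18rap, and the error bar of Il1r1 is the longest (SE 0.522).

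Casp1 was the most abundant of the 10 genes, at 109.2 and 106.4 CPM in wild-type and 89.4 and 95.5 CPM in TNFR2 KO. Groups did not overlap, nor did they for 74.0% of all tested genes. The log2-fold change of Casp1 was only -0.22 (SE 0.0394, adjusted p = 0.000488, edgeR), a 1.17-fold difference. With scaling on NK lineage genes the value was -0.97 (adjusted p = 1.02e-10, edgeR). The transcripts of the cytokine precursors that caspase-1 cleaves, Il1b and Il18, were thus at 0.189 and 0.166 of wild-type with TMM scaling. That of the protease was at 0.857, and other substrates of caspase-1 were not compared here.

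To compare levels between genes, CPM was divided by the mean length in kb of each gene's coding transcripts in GENCODE M21. On this scale of CPM per kb, Casp1 came first in wild-type, at 73.0 and 71.1, followed by Il1rn at 39.98 and 37.6, Il18bp at 32.8 and 31.5 and Il1rl1 at 31.02 and 30.7. Il1b stood at 25.8 and 27.7 CPM per kb and Il18 at 14.7 and 14.99, and the remaining 4 genes were under 6. In TNFR2 KO Casp1 was again first, at 59.7 and 63.8 CPM per kb, with Il1rl1 second at 22.7 and 22.8. Il1rap followed at 5.90 and 6.03, and Il1b at 5.32 and 4.77 and Il18bp at 5.05 and 4.99 overlapped each other. Il1rn stood at 2.95 and 3.47 and Il18 at 2.66 and 2.22, above Il1r2 at 1.46 and 0.736, Il1a at 0.210 and 0.221 and Il1r1 at 0.0437 and 0.129. The order depends on the length chosen. With the joint length of all annotated exons, which is 5535 bases for Il1rn against a mean transcript of 1377 bases, Il1rn fell behind Il1b, Il18bp, Il1rl1 and Il18 in wild-type.

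Of the wider IL-1 pathway, 50 further genes were listed and 42 passed the filter on low counts. In the test 11 of these 42 were lower past both thresholds and 0 were higher (DESeq2 gave 10 and 0 among the 46 it tested), and by adjusted p alone 18 were lower and 11 higher. Of all tested genes, 11.8% were lower and 1.56% higher past both thresholds, and 26.2% and 24.2% by adjusted p alone. At an unadjusted p under 0.05, 12 of the 42 pathway genes were higher, as were 3730 of all 13822 tested genes. The median log2-fold change of the 42 was -0.01, close to that of all tested genes. Scaling on NK lineage genes turned 10 of the 11 higher genes to lower, and library size alone turned 0 of them. The other IL-1 family ligands were nearly silent, since Il36a, Il36b, Il36rn and Il1f10 had 0 counts in every library and Il33 stayed at or under 0.125 CPM. Only Il36g was tested, and it was lower, at 2.32 and 3.42 CPM in wild-type and 0.827 and 1.28 CPM in TNFR2 KO (log2-fold change -1.46, adjusted p = 0.00122, edgeR).

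The group of inflammasome sensors and effectors of membrane rupture had log2-fold changes from -3.27 to 0.83. By adjusted p alone 13 of its tested genes were lower and 5 higher, against 26.2% and 24.2% of all tested genes. Of the 21 tested genes of this group, 8 were lower past both thresholds, where 11.8% of all tested genes were. These 8 were Nlrp3, Mefv, Nlrp6, Nlrp1a, Ninj1, Casp12, Nlrc4 and Nlrp1b. Nlrp3, the sensor most linked to IL-1β release, measured 12.2 and 12.3 CPM in wild-type and 1.06 and 1.498 CPM in TNFR2 KO. The log2-fold change was -3.27 (SE 0.168, adjusted p = 7.64e-09, edgeR). Mefv, encoding pyrin, had the same log2-fold change of -3.27, and Ninj1, which encodes a protein that ruptures the membrane of dying cells, one of -2.50. Nlrc4, Nlrp1a and Casp12 had log2-fold changes of -2.30, -2.66 and -2.46. Nlrp6 (-2.82) and Nlrp1b (-1.10) rest on low levels, under 0.37 CPM for Nlrp6 and under 2.5 CPM for Nlrp1b in each library. Nlrp6 passed the filter on low counts through its wild-type libraries alone, with 0 TNFR2 KO libraries at the minimum.

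The 2 most abundant genes of the same group were higher with TMM scaling and lower with NK lineage scaling. Txnip, encoding a thioredoxin-binding protein, measured 208.5 and 206.4 CPM in wild-type and 275.6 and 277.2 CPM in TNFR2 KO (log2-fold change 0.41, adjusted p = 5.80e-08, edgeR, and -0.33 with scaling on NK lineage genes). Pycard, which encodes the inflammasome adaptor ASC, measured 160.9 and 166.4 CPM in wild-type and 212.8 and 219.5 CPM in TNFR2 KO, with a change of 0.40 on the log2 scale (adjusted p = 3.28e-07, edgeR) that was -0.34 with that scaling. Naip5, a sensor that works with NLRC4, was higher (log2-fold change 0.83, adjusted p = 1.07e-07, edgeR), and its value was 0.09 with that scaling. Among 15 tested genes of receptor signalling, 2 were lower past both thresholds, Irak3 and Peli2, a share near the 11.8% of all tested genes. Irak3, an inhibitory member of the IRAK family, fell from 13.4 and 13.0 CPM to 1.71 and 1.94 CPM (log2-fold change -2.86, adjusted p = 4.17e-09, edgeR). Peli2 was at or under 1.397 CPM throughout (log2-fold change -3.12) and passed the filter on low counts through its wild-type libraries alone. Myd88, the shared adaptor, was slightly lower (log2-fold change -0.20, adjusted p = 8.94e-05, edgeR), and Tab2, the most abundant gene of the signalling group, one of 0.06 (adjusted p = 0.0996), which turned to -0.004 with library size alone and -0.69 with NK lineage genes as scaling.

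Markers of other cells moved with the IL-1 genes. Of 18 macrophage or monocyte markers 17 were lower past both thresholds, with a median log2-fold change of -2.93 and quartiles of -3.22 and -2.79. The exception was Ccr2, at 403.5 and 384.0 CPM in wild-type and 686.6 and 669.7 CPM in TNFR2 KO. Summed expression of this list was 2192 to 2212 CPM in wild-type and 918.3 to 942.7 CPM in TNFR2 KO, and without Ccr2, left out after its values were seen, 1808 CPM in both wild-type libraries and 248.6 to 256.0 CPM in TNFR2 KO. All 16 neutrophil or granulocyte precursor markers were lower past both thresholds (median -2.25, quartiles -3.41 and -1.81), with sums of 1046 to 1062 CPM in wild-type and 107.2 to 111.6 CPM in TNFR2 KO. The log2-fold changes of Il1a, Il1b, Il18 and Il18bp lay inside the quartiles of the neutrophil list, only that of Il1a inside those of the macrophage list, and that of Il1rn below both. Those of Il1rap, Il1rl1, Casp1, Il1r1 and Il1r2 lay above the quartiles of both lists. The neutrophil list was not alone in this. Il1a, Il1b, Il18, Il18bp and Il1r2 lay inside the quartiles of the dendritic cell or class II list (-3.54 and -0.96). Il1a, Il1b, Il18 and Il18bp also lay inside those of the megakaryocyte or platelet list (-3.45 and -2.11). Defining myeloid markers were low but not at 0 in TNFR2 KO, with Lyz2 at 114.0 and 110.4 CPM and Csf1r at 27.4 and 26.7 CPM.

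ST2 is also a marker of mast cells and group 2 innate lymphoid cells. Of 10 tested mast cell or basophil markers of 11 listed, 9 were lower and 1, Cma1, was higher past both thresholds, with a median log2-fold change of -5.03 and sums of 1276 to 1279 CPM in wild-type and 102.2 to 102.7 CPM in TNFR2 KO. Tpsab1, the marker that was not tested, had 5 counts in wild-type replicate 2 and 0 in the other 3 libraries. Of 6 markers of group 2 innate lymphoid cells only Il13 was called, with a log2-fold change of -1.32, and their sum was 32.1 to 32.2 CPM in wild-type and 22.7 to 26.3 CPM in TNFR2 KO. The change in Il1rl1 of -0.44 was thus far smaller than the median of the mast cell or basophil list.

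The libraries held 32713256 to 39543650 counts each. Tnfrsf1b, the targeted gene, measured 264.7 and 268.6 CPM in wild-type and 55.1 and 58.6 CPM in TNFR2 KO. All 17 NK lineage genes were higher in TNFR2 KO at an adjusted p under 0.05 (median log2-fold change 0.84, edgeR), with Il2rb, Prf1 and Nkg7 the most abundant. Dendritic cell or class II (5 of 9 tested genes), megakaryocyte or platelet (6 of 7), erythroid (8 of 9) and stromal or endothelial (2 of 4) markers were lower past both thresholds, and 0 of 6 T cell markers and 0 of 1 tested B cell markers were. By adjusted p alone 5 of the 6 T cell markers were lower and 1 was higher, and the 1 tested B cell marker was lower. Of all tested genes 26.2% were lower by that criterion.

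**Figure D5:**
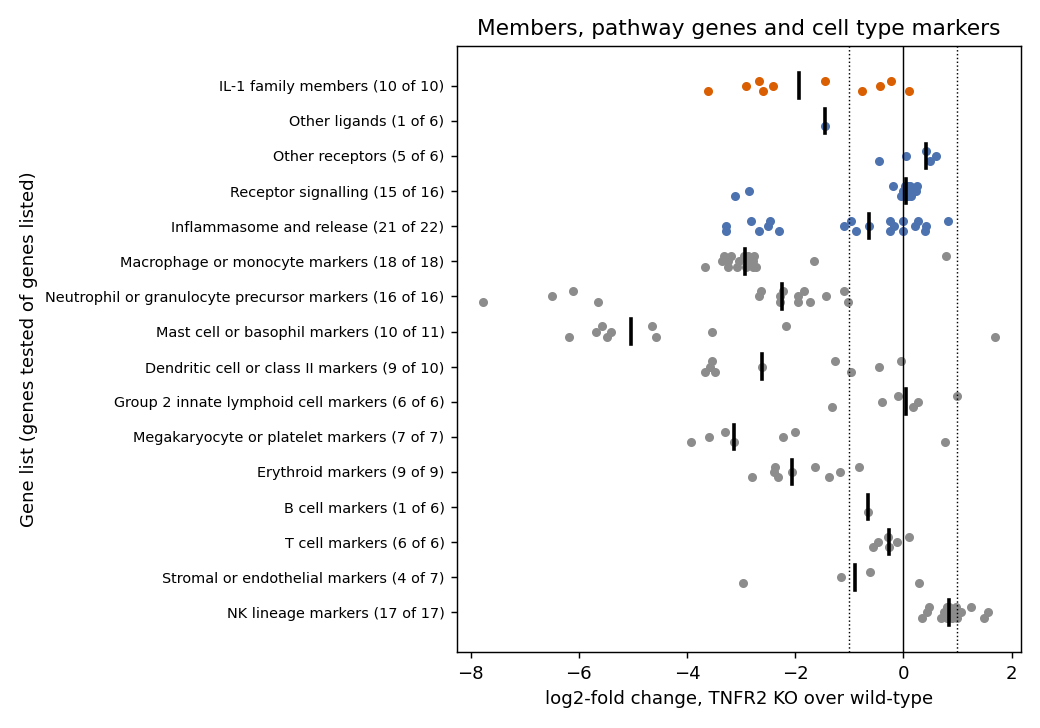
log2-fold change in TNFR2 KO relative to wild-type for the tested genes of each list, 1 point per gene with the median as a black bar, for the IL-1 family genes (orange), the other pathway genes (blue) and cell type markers (grey). The medians were -1.92 for the IL-1 family genes, -2.93 for macrophage or monocyte markers, -2.25 for neutrophil or granulocyte precursor markers and 0.84 for NK lineage genes.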

How the data were processed

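Poly-A RNA was sequenced from 2 wild-type and 2 TNFR2 KO libraries, grouped by their labels. The authors trimmed paired-end, stranded reads with Trimmomatic (1.4), assigned them to mm10 transcripts with kallisto (0.46.1) and deposited estimated counts per gene symbol without scaling. The sources used here name no transcript annotation, and GENCODE M21 (GRCm38) supplied positions, lengths and shared 31-base stretches.

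A row without a gene name (0.0559% to 0.0728% of counts) was left out. Counts were rounded, filtered with filterByExpr, scaled by TMM and tested with edgeR 4.0.16 in R 4.3.3 (quasi-likelihood, genotype only, Benjamini-Hochberg over all 13822 genes kept). All 10 genes passed the filter, Il1r1 with 1 of 2 TNFR2 KO libraries at its minimum of 10 counts. Nlrp6, Peli2 and some mast cell and megakaryocyte markers reached that minimum in wild-type libraries alone. Standard errors are the log2-fold change over the root of F. As deposited, 8 of the 10 genes had whole counts in every library (tolerance 1e-06), and Il1rn and Il1rl1 did not. Replicates differed by more than sampling noise, the chi-square averaging 3.29 (wild-type) and 3.49 (TNFR2 KO) per gene where noise gives 1.

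The labels state that same-numbered libraries share pooled spleens, so the numbers pair the samples. Deviations of paired libraries from their group means correlated at 0.0487 over genes.

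Members and lists were chosen with earlier results of these data known. Named genes were all members, Tnfrsf1b, the 2 most abundant and all called genes of each pathway group, and the most abundant genes of marker lists. Il1rl2, Naip5, Ccr2, Cma1, Tpsab1 and Il13 were named after their values were seen. Alternatives included DESeq2 1.42.0, other scalings and filters, the replicate block and each library left out. The edgeR and DESeq2 steps were tested on simulated data. Plots used matplotlib 3.10.9.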

Additional observations from a re-analysis of the deposited data

How the results depend on the processing

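Of the 10 genes, 6 were also called lower by DESeq2 itself, without a filter, and when scaled by library size alone, by upper quartiles or by DESeq2's size factors. Requiring a mean of at least 10 CPM left 6 of them to test, of which 3 were called, as fewer genes were tested. That filter also gave 2 lower pathway genes among 30 tested, and 420 lower and 58 higher genes among all 8763. Scaling on NK lineage genes gave 8 lower members (Il1r1 at -1.50 and Il1rl1 at -1.18 in addition), turned Il1rap to -0.65, and gave 3529 lower and 37 higher genes in all, against 1627 and 215 with TMM. All 17 NK lineage genes were higher in TNFR2 KO with TMM (median log2-fold change 0.84), so scaling on them lowered log2-fold changes in general. The median over all tested genes moved from -0.003 to -0.75. Why the NK lineage genes were higher was not tested. The paired fit, with the replicate block, called 6 members, 11 pathway genes, and 1616 lower and 214 higher genes in all, and changed no call on the members. With each library left out in turn, 6 to 7 members and 9 to 12 pathway genes were lower and 0 of either higher. Depth limits Il1r1, with at most 34 counts in a library, and Il1a in TNFR2 KO.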
